A study of Mus musculus with 8 samples.

Results

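Hepatic macrophages from steatotic livers were compared with hepatic macrophages from normal livers after 24 h in culture with vehicle (Veh), across every gene with enough reads for a test. The members are the 14008 genes, of 55401 in the deposited table, with at least 0.5 CPM (the count of a gene per 1000000 counts of its library) in at least 2 of the 4 Veh libraries. Normal livers came from wild-type C57BL/6J mice on a standard diet, and steatotic livers from MC4R-KO mice on the same strain background that had received a Western diet for 6 to 10 wk, with 2 libraries in each group. MC4R is a brain receptor that restrains food intake, and mice without it become obese. The study's methods give a vendor as the source of wild-type mice and another laboratory as that of the MC4R-KO line. Genotype, diet and source of the mice differ together between the livers, so their parts cannot be told apart. The study's methods describe male mice that were 8 wk old at the start of a longer feeding experiment and give no age for the mice of these cells, and the loss of *Mc4r* is not restricted to a cell type in the labels. Cells of both livers had been taken from the non-parenchymal fraction with an antibody against F4/80 and magnetic columns and then seeded on collagen-coated plates. The labels do not say whether the libraries of a group came from separate animals, and p-values then measure only the spread between these libraries, which may be technical.

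Macrophages of the healthy liver are mostly Kupffer cells, long-lived residents of the sinusoids that clear particles, old red cells and lipoproteins from the blood. When resident cells are depleted, for example in a fatty liver, blood monocytes can enter the organ, and those that stay come to express resident genes over time. A further state, known as the scar-associated or lipid-associated macrophage, handles lipid from dying hepatocytes and is found near fibrous tissue.

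*Mc4r*, which the MC4R-KO mice should lack in working form, had 0 counts in both normal Veh libraries and 28 and 22 counts in the steatotic Veh libraries, and in the libraries with cholesterol crystals (CC) 0 in both normal and 53 and 72 in the steatotic ones. A brain receptor may be silent in wild-type macrophages, so the counts in the MC4R-KO libraries are the part that the labels leave unexplained. A disrupted allele can still be transcribed, but the source of these counts was not tested, and every direction below rests on the labels. Total counts of the 8 libraries lay between 58668655 and 74529462, and 130 genes above 5 CPM differed by over 2-fold between the normal Veh replicates and 119 between the steatotic ones. The 15 macrophage markers examined were all well above the filter in every library, with a summed level of 20810 to 21470 CPM in normal and 20850 to 21450 CPM in steatotic cells. Values of single genes are given as CPM in replicates 1 and 2 of a group, the normal before the steatotic libraries where both follow each other. *Adgre1*, which encodes the F4/80 antigen used for the isolation, had 1062 and 1087 CPM in normal and 1739 and 1730 CPM in steatotic cells.

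At vehicle, 2455 genes were higher in steatotic than in normal macrophages, 17.5% of the 14008 tested, and 2261 were lower, 16.1% (called at an adjusted p under 0.05 in the edgeR quasi-likelihood test, with Benjamini-Hochberg adjustment over all genes tested, here and throughout). The differences were mostly modest, with a median log2 fold change of 0.641 among the genes called higher and a median size of 0.482 among those called lower. A difference over 2-fold was found for 875 of the higher genes, 6.25% of all tested, and for 460 of the lower genes, 3.28% of all tested. When a change beyond 2-fold was itself tested, 404 and 161 genes passed, and with a filter at 5 CPM there were 450 and 199. Above a log2 fold change of 2 there were 350 higher and 124 lower genes, and above 3 there were 152 and 64. Among the 101 genes with a mean of at least 1000 CPM, 41 were higher and 37 lower, with a median log2 fold change of 0.37 and -0.54. Genes called higher held 25.3% to 25.4% of all counts in the normal libraries and 35.9% to 36.0% in the steatotic libraries. Those called lower held 30.9% to 31.3% in normal and 21.6% in both steatotic libraries. Of the tested genes, 338 passed the filter through the steatotic libraries alone and 208 of them were called higher, and 231 passed through the normal libraries alone and 114 of them were called lower. Such genes had to differ in level to be tested at all.

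**Figure D1:**
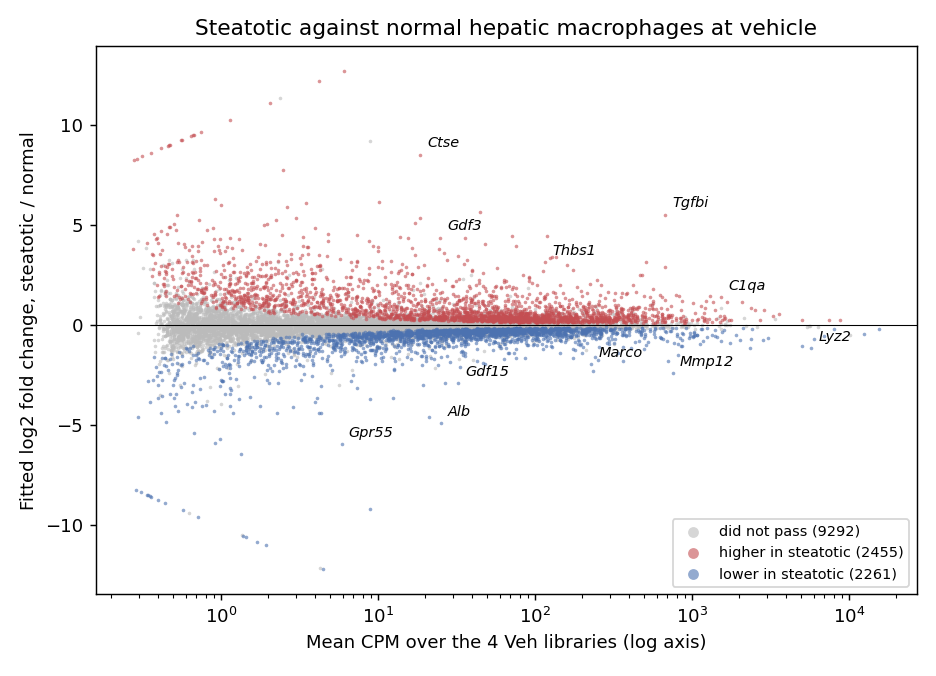
Each point is 1 of the 14008 tested genes, with its mean CPM over the 4 Veh libraries on a log axis and its fitted log2 fold change of steatotic over normal. The 2455 genes called higher and the 2261 called lower are spread over the whole range of levels, and the oblique rows of points at the left edge are genes at or near 0 counts in 1 group, whose fitted values depend on the prior count.

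The protein-coding genes with the highest fold changes were low or barely detected in macrophages of normal livers. *Tgfbi*, a secreted adhesive protein named for its induction by TGF-β, had 28.4 and 30.6 CPM in the normal libraries and 1324 and 1314 CPM in the steatotic libraries, a difference of 5.52 on the log2 scale (SE 0.0595, adjusted p = 1.65e-08). It lies on chromosome 13 of GRCm38 from 56609523 to 56639562 and was the most abundant of the 12 protein-coding genes with the highest fold change. *Ctse*, an aspartic protease of endosomes, had 0.142 and 0.0604 CPM in normal and 35.2 and 38.6 CPM in steatotic cells, so that the normal libraries held only a few counts of it. *Gdf3*, a ligand of the TGF-β superfamily, rose from 2.41 and 2.29 to 47.6 and 46.9 CPM. *Plac8*, a small cysteine-rich protein common in monocytes, had 3.003 and 4.05 CPM in normal and 67.8 and 69.8 CPM in steatotic cells. *Kcnn4*, a calcium-activated potassium channel, had 1.29 and 1.74 CPM in normal and 30.1 and 28.96 CPM in steatotic cells. Groups that do not overlap were a condition for this choice of genes.

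The other genes of this rank included some whose reads the counting could have split among relatives. *Sirpb1a*, an activating receptor of the signal-regulatory protein family, had 10.5 and 11.1 CPM in normal and 235 and 222 CPM in steatotic cells. Its close relatives *Sirpb1b* and *Sirpb1c* were also higher, with log2 fold changes of 3.42 and 3.39, and near-identical copies make the level of each uncertain. *Gbp2b*, an interferon-induced GTPase of a clustered family, had 0.34 and 0.242 against 18.5 and 21.5 CPM. *Morn4* had 0.652 and 0.634 against 13.8 and 14.2 CPM, and *BC147527* had 0.992 and 0.815 against 37.2 and 35.4 CPM. *Rims2*, a scaffold of the presynaptic release site that is not known as a macrophage gene, had 0 counts in both normal libraries and 12.2 and 12.3 CPM in the steatotic libraries, at least 69.9-fold higher when 12 counts in a normal library, possibly 3 fragments, are taken as the floor.

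Genes lower in steatotic macrophages fell over a smaller range. *Mmp12*, the macrophage elastase, was the most abundant of the 12 with the lowest fold change and had 1267 and 1289 CPM in normal and 247 and 229.8 CPM in steatotic cells, a difference of -2.38 on the log2 scale (SE 0.09, adjusted p = 7.93e-06). *Gdf15*, a stress-induced hormone that acts on the hindbrain, had 57.8 and 57.5 CPM in normal and 8.59 and 6.65 CPM in steatotic cells (log2 fold change -2.88, SE 0.159, adjusted p = 3.74e-05). *Fgfr1*, a receptor tyrosine kinase for fibroblast growth factors, was at 46.8 and 47.4 against 6.41 and 5.87 CPM. *Gpr55*, a receptor for lysophosphatidylinositol, was at 11.9 and 11.2 CPM in normal and 0.132 and 0.231 CPM in steatotic cells. *Plcxd2*, a phospholipase-like protein, was at 21.2 and 25.2 against 1.98 and 1.699 CPM, and *Ndrg4* at 13.3 and 13.2 against 1.62 and 1.29 CPM. *Spire2*, an actin nucleator, and *Speg*, a kinase best known from muscle, were at 11.5 and 12.4 against 2.43 and 1.71 CPM and at 10.9 and 12.8 against 1.68 and 1.67 CPM. *Eef1a2*, the tissue-restricted form of the translation elongation factor, had 17.8 and 15.5 CPM in normal and 1.26 and 1.21 CPM in steatotic cells.

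*Usf3*, which encodes a basic helix-loop-helix factor, was at 32.9 and 35.8 CPM in normal and 6.12 and 2.26 CPM in steatotic cells, and its call was lost when the 4 Veh libraries were fitted alone. *Hnrnpa3*, which encodes an RNA-binding protein of the spliceosome, was at 40.5 and 41.2 CPM in normal Veh and 1.46 and 1.82 CPM in steatotic Veh libraries. With CC at 500 μg/ml, *Hnrnpa3* was at 2.16 and 1.84 CPM in normal and 1.81 and 2.03 CPM in steatotic cells, so that the normal Veh libraries stood apart from the other 6. Processed copies of this gene lie elsewhere in the genome, and its count is uncertain. *Alb*, the albumin gene of hepatocytes, is taken up with the other hepatocyte genes.

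**Figure D2:**
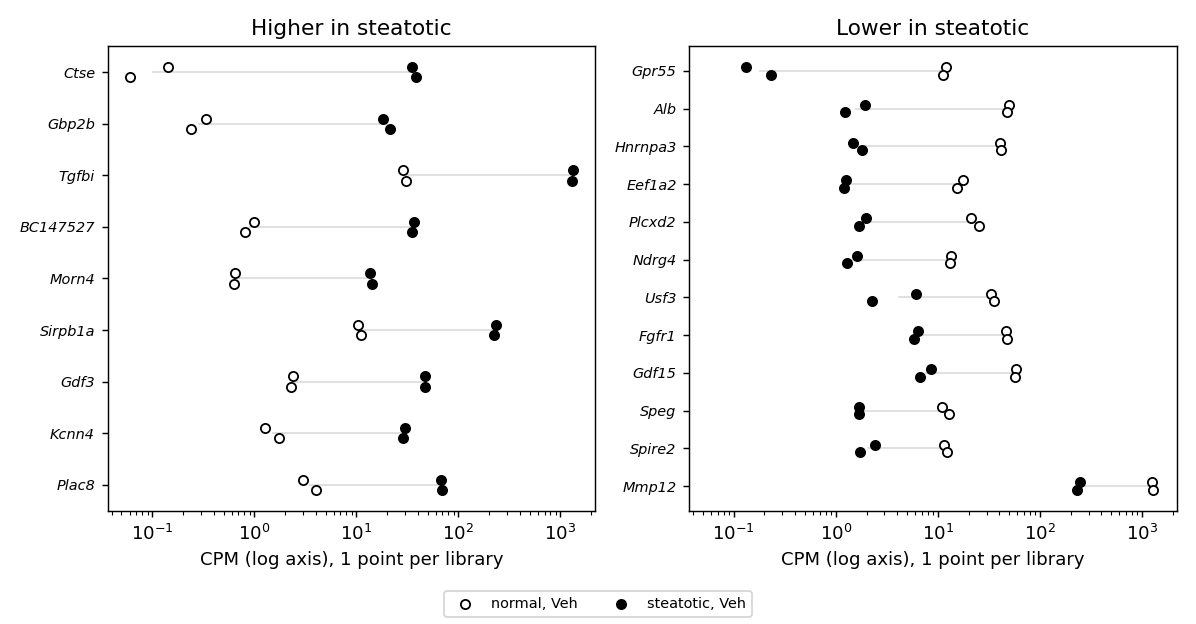
Points give the CPM of each Veh library on a log axis (open, normal; filled, steatotic; 2 libraries per group) for genes with the highest (left) and the lowest (right) fold changes by the rule for named genes, and grey lines join the group means. *Rims2*, with 0 counts in the normal libraries, is not drawn. Groups that do not overlap were a condition of the choice.

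By absolute level, the 8 genes with the largest gain were *Ctsl*, *Itm2b*, *C1qa*, *Ctsc*, *Lgmn*, *Tgfbi*, *C1qb* and *Cd5l*. *Ctsl*, the cysteine protease cathepsin L, had 1353 and 1281 CPM in normal and 2815 and 2859 CPM in steatotic cells, a difference of 1.15 on the log2 scale (SE 0.0515, adjusted p = 4.55e-06). *Lgmn*, the asparaginyl protease that matures other cathepsins, had 2984 and 2886 against 4215 and 4253 CPM, and *Ctsc*, the dipeptidyl peptidase that activates granule proteases, 1702 and 1726 against 2979 and 3095 CPM. *Itm2b*, a membrane protein that is cleaved into a secreted peptide, rose from 2214 and 2157 to 3504 and 3624 CPM. *Cd5l*, a protein that macrophages secrete to protect themselves from death under lipid load, had 1948 and 1919 CPM in normal and 3122 and 3162 CPM in steatotic cells. The 8 genes with the largest loss were *Lyz2*, *Psap*, *Lgals3*, *Gpnmb*, *Ftl1*, *Ctsb*, *Prdx1* and *Cd68*. *Ftl1*, the light chain of the iron store ferritin, was at 8576 and 8108 CPM in normal and 6089 and 5056 CPM in steatotic cells (log2 fold change -0.54, adjusted p = 0.0103), and its call was lost without normal replicate 1. *Lyz2*, the macrophage lysozyme, fell from 8228 and 7908 to 3429 and 3591 CPM (log2 fold change -1.16, SE 0.076, adjusted p = 6.89e-05). *Psap*, the precursor of the saposins that present sphingolipids to lysosomal enzymes, had 14470 and 14590 CPM in normal and 10220 and 10880 CPM in steatotic cells. *Ctsb*, cathepsin B, was the most abundant gene of this group and moved least, from 17100 and 16500 to 14510 and 14400 CPM (log2 fold change -0.18, adjusted p = 0.00243). *Cd68*, a lysosomal glycoprotein used as a macrophage marker, fell from 3685 and 3494 to 2075 and 2076 CPM. In bulk RNA, fewer cells of a type and less RNA per cell cannot be told apart, for these and for all values that follow.

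Of the 15 macrophage markers tested, 11 were higher and 3 lower. The 3 chains of C1q, the recognition unit of the classical complement pathway that resident macrophages secrete, rose together, with *C1qa* at 884 and 842, *C1qb* at 1087 and 1029 and *C1qc* at 743 and 695 CPM in normal cells. In steatotic cells the chains were at 2148 and 2248, 2231 and 2389 and 1851 and 1953 CPM in the same order, and their log2 fold changes were 1.39, 1.17 and 1.44. *Fcgr1*, the high-affinity receptor for immunoglobulin G, rose from 766 and 764 to 1726 and 1684 CPM. *Cd14*, the co-receptor for lipopolysaccharide, was lower in steatotic cells, at 221 and 233 CPM against 494 and 513 CPM, as were *Cd68* and *Lyz2*. *Csf1r*, the receptor for the growth factor on which macrophages depend, had 1604 and 1636 CPM in normal and 1624 and 1693 CPM in steatotic cells and did not pass (adjusted p = 0.447).

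Kupffer cell genes did not move as a block. Of the 20 listed, all of which were tested, 6 were higher and 7 lower (median log2 fold change -0.10, against -0.02 over all genes tested). This count and those of the lists that follow stand against 17.5% higher and 16.1% lower among all genes tested. These shares were larger among abundant genes, at 32.8% and 21.9% from 100 to 1000 CPM and 40.6% and 36.6% above. No list was matched for level, so a list of abundant genes is not set against genes of its own level. *Marco*, a scavenger receptor for particles and bacteria, fell from 357 and 375 to 95.2 and 90.5 CPM, a difference of -1.94 on the log2 scale (SE 0.147, adjusted p = 0.000298). *Slc40a1*, ferroportin, through which Kupffer cells return iron from old red cells to the blood, fell from 1079 and 1083 to 552 and 543 CPM. *Vsig4*, a complement receptor of residents, rose from 335 and 302 to 569.9 and 605 CPM. *Nr1h3*, the liver X receptor α that helps to set Kupffer cell identity, had 165 and 174 CPM in normal and 222 and 219 CPM in steatotic cells. *Id3*, a factor needed for the development of Kupffer cells, had 145 and 132 against 118 and 122 CPM and did not pass (adjusted p = 0.0608).

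Genes of recruited monocytes were mostly higher. Of 20 listed, 19 were tested, and 15 were higher and 2 lower (median log2 fold change 2.70). Of the 15, 2 passed the filter through the steatotic libraries alone, so that their direction was set by it. *Ms4a4c*, a tetraspan membrane protein of monocytes, had 106 and 109 CPM in normal and 914.8 and 920.4 CPM in steatotic cells, a difference of 3.14 on the log2 scale (SE 0.0446, adjusted p = 3.22e-08). *Ccr2*, the receptor by which monocytes leave the bone marrow, was low in both but separated them, at 0.737 and 0.876 against 8.78 and 8.67 CPM. *S100a4*, a calcium-binding protein of motile cells, had 9.28 and 9.71 against 42.2 and 46.6 CPM, and *Vcan*, a large matrix proteoglycan of monocytes, 1.97 and 2.36 against 15.5 and 15.2 CPM. The genes lower in steatotic cells were *Clec4e*, a receptor for mycobacterial glycolipid and dead cells, and *Nr4a1*, an orphan nuclear receptor of patrolling monocytes, with log2 fold changes of -0.62 and -0.81. *Cx3cr1*, the fractalkine receptor, was at 2.29 and 2.19 against 1.87 and 2.49 CPM and did not pass (adjusted p = 1).

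The genes of lipid-associated or scar-associated macrophages split in direction. Of 20 tested, 7 were higher and 9 lower, and the summed level of the list was lower, at 28710 to 29290 CPM in steatotic against 36660 to 37710 CPM in normal cells. *Gpnmb*, a lysosomal glycoprotein, and *Lgals3*, galectin-3, which binds damaged lysosomes, are among the most abundant of this list and were both lower. *Gpnmb* had 7627 and 7356 CPM in normal and 4433 and 4535 CPM in steatotic cells, a difference of -0.70 on the log2 scale (SE 0.0341, adjusted p = 6.53e-06). *Lgals3* had 7070 and 6676 against 3219 and 3332 CPM in the same order. *Lpl*, lipoprotein lipase, fell from 2681 and 2444 to 1546 and 1428 CPM, and *Colec12*, a scavenger receptor with a collectin domain, from 116 and 117 to 35.6 and 36.8 CPM. Among the members that rose, beside *Ctsl*, *Spp1*, osteopontin, had 9.94 and 12.9 CPM in normal and 57.6 and 50.9 CPM in steatotic cells, and *Fabp5*, a fatty acid carrier, 259 and 249.5 against 436 and 463 CPM.

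Markers of other cells of the liver were also measured, and their part in the differences was not tested. T and NK cell markers were low but higher in steatotic cells, 14 of 16 tested, with a summed level of 10.99 to 11.8 CPM in normal and 92.5 to 98.8 CPM in steatotic cells. Of these 16, 12 passed the filter through the steatotic libraries alone and had to be higher there to be tested, and 11 of the 14 calls are theirs. With a filter at 5 CPM, 2 were tested, both higher. *Gzmb*, granzyme B, had 4.69 and 3.44 against 50.3 and 47.4 CPM, and *Il2rb*, a subunit of the receptors for interleukins 2 and 15, 1.06 and 1.51 against 19.2 and 18.6 CPM. Hepatocyte markers went the other way, with 9 of the 12 tested lower and 1 higher, out of 18 listed, and *Cps1*, the first enzyme of the urea cycle, at or near 0 in every Veh library. Likewise, 6 of the 9 lower markers were tested through the normal libraries alone, so that their direction was set by the filter, and at 5 CPM 3 of 4 were lower. *Alb* had 49.4 and 48.1 CPM in normal and 1.92 and 1.24 CPM in steatotic cells, and the member that was higher was *Ass1*, an enzyme of arginine synthesis that macrophages also express, at 7.65 and 6.42 against 37.9 and 31.7 CPM. The summed level of the tested hepatocyte markers was 91.98 to 95.6 CPM in normal and 38.9 to 45.7 CPM in steatotic cells, most of the latter from *Ass1*, and without it the other 11 summed to 85.6 to 87.9 CPM and 7.26 to 7.83 CPM. Of 13 tested markers of sinusoidal endothelium, 5 were higher and 2 lower, with sums of 132 to 138 CPM and 346 to 376 CPM. Without *Pecam1*, *Kdr*, the Fc receptor *Fcgr2b* and *Dnase1l3*, left out after their values were seen, the other 9 summed to 62.4 to 69.4 CPM in normal and 58.1 to 59.6 CPM in steatotic cells. The members left out carry the rise, so the flat sum of the rest was set by this choice and nothing is read from it. *Dnase1l3*, a nuclease that clears DNA from dead cells and is made by endothelium and macrophages, rose from 5.89 and 5.36 to 92.04 and 88.2 CPM, whereas *Stab2*, a hyaluronan receptor of sinusoidal endothelium, had 24.8 and 26.5 against 19.4 and 20.2 CPM.

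Only 4 of 14 stellate cell or fibroblast markers were tested, with 2 called higher, and the defining collagen genes *Col1a1*, *Col1a2* and *Col3a1* were below the filter. *Dcn*, the matrix proteoglycan decorin, rose from 2.14 and 2.07 to 20.8 and 17.4 CPM. Of 11 tested dendritic cell markers, 4 were higher and 1 lower, with sums of 22.4 to 22.8 and 36.6 to 36.8 CPM in normal and steatotic cells. Of 12 neutrophil markers, 4 were tested and 2 moved each way, with *Ly6g* at 0 in every Veh library and *S100a9* below the filter. Of the 6 tested B cell markers (12 listed), 0 passed in either direction by edgeR over all 8 libraries or by DESeq2, with 1 higher and 1 lower at an unadjusted p under 0.05 in edgeR. With edgeR on the 4 Veh libraries alone, or on counts divided by 4, 1 was called higher. Of 8 tested cholangiocyte markers, 2 were higher and 1 lower. The higher ones include *Spp1*, also counted with the scar-associated list. The lower one passed the filter through the normal libraries alone, so that its direction was set by it. Among platelet markers, *Pf4* was the only member tested, at 14.8 and 12.6 CPM in normal and 78.5 and 80.9 CPM in steatotic cells, and no erythroid marker was tested (0 of 8).

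**Figure D3:**
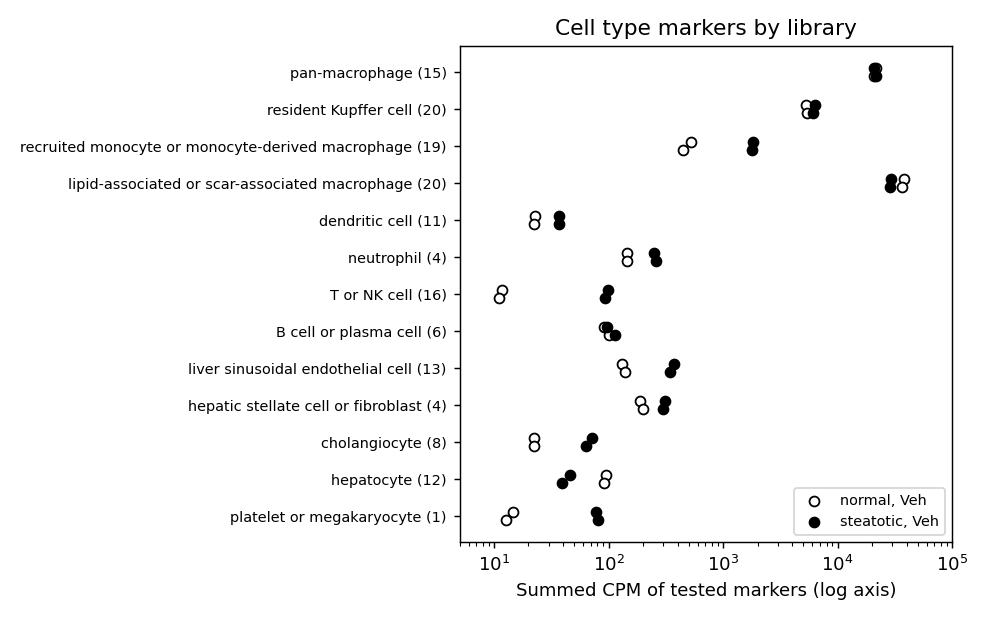
The x axis gives the summed CPM of the tested markers of each cell type on a log axis, with 1 point per Veh library (open, normal; filled, steatotic) and the number of tested markers in parentheses. Macrophage markers sum to 20810 CPM or more in every library. The T or NK cell sum is 10.99 to 11.8 CPM in normal and 92.5 to 98.8 CPM in steatotic libraries, and the hepatocyte sum, drawn with *Ass1*, 91.98 to 95.6 and 38.9 to 45.7 CPM (85.6 to 87.9 and 7.26 to 7.83 CPM without it).

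Receptors that guide leukocytes were mostly higher. Of 18 tested chemoattractant receptors, 12 were higher and 3 lower (median log2 fold change 0.42), with 1 lower when the 4 Veh libraries were fitted alone. *Ccr1*, a receptor of monocytes for inflammatory chemokines, rose from 25.1 and 23.3 to 87.4 and 86.6 CPM, a difference of 1.89 on the log2 scale (SE 0.069, adjusted p = 1.8e-06). The ligands were called in both directions. Of 19 tested, 10 were higher and 5 lower, and *Ccl5* rose from 254 and 262 to 879 and 869 CPM while *Ccl3* fell from 258 and 252 to 106 and 102 CPM and *Ccl4* from 114 and 109 to 71.4 and 59.5 CPM. *Ccl6*, a chemokine of resting macrophages, had 199 and 198 against 515 and 506 CPM, and *Cxcl2*, which draws neutrophils, 37.9 and 38.4 against 13.04 and 11.3 CPM in normal and steatotic cells. *Cxcl10* and *Cxcl13* were members that did not pass (adjusted p = 0.255 and 0.676).

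Integrins and leukocyte adhesion molecules were called in 1 direction only, with 17 of 22 tested higher and 0 lower by edgeR (24 listed, median log2 fold change 0.70). At an unadjusted p under 0.05, 2 were lower, *Icam1* and *Cd9*, and DESeq2 also called 17 higher and 0 lower, whereas 2 were called lower when counts were scaled by library size alone and 1 with the replicate number as a block. *Itgb7* and *Itga4* encode the β7 and α4 chains, which pair to form the receptor for the vascular adhesion molecules MAdCAM-1 and VCAM-1. *Itgb7* rose from 36.1 and 37.2 to 279.6 and 286 CPM, a difference of 2.99 on the log2 scale (SE 0.0418, adjusted p = 3.22e-08), and *Itga4* from 32.5 and 35.8 to 118 and 119.5 CPM. T and NK cells also carry these chains and secrete *Ccl5*, and their summed markers were higher in the same libraries. The part of those cells in these values was not tested. *Itgb5*, which pairs with the αv chain to bind vitronectin, rose from 129.8 and 126 to 237 and 246 CPM. *Icam1* had 114 and 119 against 106 and 97.3 CPM and did not pass (adjusted p = 0.0793).

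Of the 26 matrix and matrix-remodelling genes, all tested, 19 were higher and 2 lower (median log2 fold change 0.60). *Adam8*, a membrane metalloprotease of leukocytes, rose from 356 and 368 to 963 and 882 CPM, and *Mmp8*, a collagenase, from 50.1 and 46.4 to 94.1 and 98.03 CPM. The members lower in steatotic cells were the elastase *Mmp12* and the gelatinase *Mmp9*, the latter at 4.87 and 6.03 CPM in normal and 1.92 and 1.73 CPM in steatotic cells. Among growth factors and the TGF-β family, 19 of 22 were tested, and 8 were higher and 5 lower. *Thbs1*, a matrix protein that activates latent TGF-β, rose from 22.7 and 25.97 to 215 and 202 CPM, a difference of 3.14 on the log2 scale (SE 0.0758, adjusted p = 4.29e-07). *Vegfb* fell from 22.5 and 23.3 to 5.83 and 5.695 CPM and *Pdgfa*, a mitogen of stellate cells, from 31.3 and 29.5 to 17.9 and 16.4 CPM. Of their relatives, some were higher. *Vegfa*, the main growth factor of vessels, rose from 2.29 and 2.02 to 11.7 and 10.8 CPM, *Pdgfb* from 32.5 and 35.4 to 54.9 and 51.7 CPM and *Pdgfc* from 87.03 and 89.96 to 119.8 and 124 CPM. *Igf1* had 290.4 and 274 CPM in normal and 262 and 269 CPM in steatotic cells and did not pass (adjusted p = 0.444), nor did *Inhba*, the activin A subunit, with 6.53 and 8.41 against 9.82 and 7.29 CPM.

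Cytokines and their receptors were called in both directions. Of 27 tested cytokine and cytokine receptor genes, 12 were higher and 5 lower, but 10 and 8 with the 4 Veh libraries alone and 10 and 7 with scaling by library size only. *Il21r*, the interleukin-21 receptor, rose from 5.76 and 4.89 to 51.2 and 48.5 CPM, a difference of 3.26 on the log2 scale (SE 0.0982, adjusted p = 9.14e-07). *Il4ra*, the receptor chain shared by interleukins 4 and 13, rose from 152 and 172 to 389 and 406 CPM, and *Csf3r*, the receptor for granulocyte colony-stimulating factor, from 81.1 and 81.3 to 149.5 and 156 CPM. *Tnf* was lower in steatotic cells, at 52.2 and 50.6 CPM against 96.6 and 94.7 CPM, as were *Il1a*, at 39.5 and 36.6 against 78.95 and 83.7 CPM, and the interleukin-1 antagonist *Il1rn*, at 308 and 285 against 423 and 431 CPM.

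Innate sensors were mostly higher. Of 24 tested innate sensors, 15 were higher and 2 lower (median log2 fold change 0.35). *Tlr9*, which senses unmethylated DNA in endosomes, rose from 36.5 and 39.1 to 159.6 and 152 CPM, a difference of 2.08 on the log2 scale (SE 0.0754, adjusted p = 1.8e-06). *Tlr8*, an endosomal receptor of RNA, rose from 146 and 147 to 297 and 289 CPM. *Tlr1* and *Tlr2* pair at the cell surface to bind bacterial lipopeptides, and they went opposite ways, *Tlr1* from 42.3 and 42.2 to 170.1 and 161 CPM and *Tlr2* from 177 and 185 to 104 and 109.5 CPM. *Nlrp3*, the sensor of the inflammasome, had 32.5 and 35.1 against 31.3 and 28 CPM and did not pass (adjusted p = 0.357). Of 19 tested complement genes, 12 were higher and 1 lower, with *Cfb*, factor B of the alternative pathway, rising from 838 and 901 to 1855 and 1864 CPM and *C2*, its counterpart in the classical pathway, falling from 284 and 288 to 178 and 179 CPM.

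Among 22 tested Fc receptors and partners of the ITAM and ITIM families, 11 were higher and 4 lower. *Fcgr4*, an activating receptor for immunoglobulin G, rose from 192 and 192 to 594 and 559 CPM, a difference of 1.63 on the log2 scale (SE 0.0487, adjusted p = 9.14e-07). *Treml4*, a receptor for dead cells, fell from 73.8 and 73.9 to 19.2 and 20.1 CPM, and *Lilrb4a*, an inhibitory receptor, from 1145 and 1058 to 652 and 616 CPM. C-type lectins and siglecs were called in both directions. Of 21 tested, 11 were higher and 6 lower, the former including the neighbouring genes *Clec4a1*, *Clec4a2* and *Clec4a3*, with log2 fold changes of 1.23, 2.03 and 1.54, whose similarity makes each level uncertain. *Clec7a*, dectin-1, the receptor for fungal β-glucan, fell from 1184 and 1167 to 523 and 579.8 CPM, and *Cd33*, an inhibitory siglec, from 28.6 and 28.4 to 10.9 and 10.6 CPM. Of 20 tested scavenger and efferocytosis receptors, 10 were higher and 4 lower, with 1 of the higher ones tested through the steatotic libraries alone. *Cd93* rose from 67.2 and 67.2 to 198 and 205 CPM and *Stab1*, a clearance receptor of resident macrophages, from 137 and 148 to 258 and 271 CPM, while *Axl* was at 900.4 and 902 against 819.7 and 860.3 CPM and did not pass (adjusted p = 0.272).

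Antigen presentation genes were mostly higher. Of 16 tested class II and costimulation genes, 11 were higher and 1 lower (median log2 fold change 0.97). *H2-Aa*, a chain of the class II molecule, rose from 139.6 and 138 to 290.4 and 312 CPM, and *H2-DMa*, part of the editor that loads its peptides, from 25.6 and 23.7 to 51.4 and 55.3 CPM. *Cd274*, the checkpoint ligand PD-L1, rose from 234 and 243 to 428 and 416 CPM, and the lipid-presenting *Cd1d1* was lower in steatotic cells, at 11.7 and 12.5 against 20.6 and 26.4 CPM. Of 16 tested class I and peptide-loading genes, 9 were higher and 1 lower. *Nlrc5*, the transactivator of class I genes, rose from 90.9 and 91.7 to 154 and 141 CPM, whereas *H2-K1* had 1112 and 1110 against 2300 and 1625 CPM, with steatotic replicates too far apart to pass (adjusted p = 0.0732).

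Interferon-stimulated genes were called in both directions. Of 28 tested, 13 were higher and 5 lower. *Ifi44* rose from 81.2 and 78.9 to 308 and 269 CPM and *Gbp2* from 384 and 394 to 596 and 579 CPM. The antiviral genes *Ifit3*, *Rsad2* and *Ifit2* were lower in steatotic cells. *Ifit3* had 2287 and 2293 CPM in normal and 1210 and 1171 CPM in steatotic cells (log2 fold change -0.90, SE 0.0305, adjusted p = 1.39e-06). *Usp18*, the brake on interferon receptor signalling, had 308 and 299 against 318 and 305 CPM and did not pass (adjusted p = 0.259).

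Lysosomal hydrolases and membrane proteins were called in both directions. Of 31 tested, 12 were higher and 14 lower, and apart from the cathepsins above, *Man2b1*, the lysosomal α-mannosidase, rose from 417 and 421 to 696 and 742 CPM. *Ctsa*, the protective protein of lysosomal galactosidase, fell from 1535 and 1495 to 825 and 865 CPM, and *Lipa*, the acid lipase that frees cholesterol from its esters, from 1714 and 1680 to 1121 and 1146 CPM. *Npc1* and *Npc2*, which carry free cholesterol out of lysosomes, did not pass, at 382 and 397 against 341 and 352 CPM for *Npc1* and 2301 and 2236 against 2115 and 2177 CPM for *Npc2* (adjusted p = 0.0635 and 0.398). Subunits of the vacuolar ATPase, which pumps protons into lysosomes, were called in 1 direction, 12 of 17 lower and 0 higher by edgeR (median log2 fold change -0.27), with the same counts by DESeq2 and at an unadjusted p under 0.05. *Atp6v1a*, the catalytic subunit, fell from 1041 and 1034 to 638 and 659.5 CPM (log2 fold change -0.64, SE 0.0363, adjusted p = 1.44e-05). *Atp6v1c1* fell from 279 and 274 to 129.9 and 125 CPM and *Atp6v1h* from 171 and 162 to 87.3 and 91.1 CPM. *Atp6v0d2*, the subunit found in osteoclasts and macrophages, had 77.1 and 74.6 CPM in normal and 69.3 and 66.7 CPM in steatotic cells and did not pass (adjusted p = 0.194). Of 12 tested genes of the osteoclast type, 7 were higher and 2 lower, with 1 of the higher ones tested through the steatotic libraries alone. *Ctsk*, the collagen-degrading cathepsin K, was at 8.98 and 8.23 against 21.3 and 19.6 CPM.

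Genes of sterol synthesis were lower, while the cholesterol exporters *Abca1* and *Abcg1* were higher. All 18 sterol synthesis and uptake genes were tested and had a log2 fold change below 0, with 12 of them called lower and 0 called higher by edgeR (median -0.56). DESeq2 called 11 lower and 0 higher, and at an unadjusted p under 0.05 there were 13 and 0. *Sqle*, the squalene epoxidase, fell from 9.45 and 8.44 to 3.53 and 3.22 CPM, and *Lss*, which closes the sterol ring, from 15.3 and 16.04 to 6.59 and 7.01 CPM. *Fdps*, which makes farnesyl diphosphate, fell from 21.9 and 22.1 to 11.2 and 10.4 CPM, while *Srebf2*, the factor that drives the pathway, had 81.9 and 112 against 78.7 and 82.2 CPM and did not pass (adjusted p = 0.394). Of the 18 cholesterol efflux genes and targets of the liver X receptors, 8 were higher and 4 lower. *Abca1* and *Abcg1*, the exporters to apolipoprotein A-I and to high-density lipoprotein, rose from 311 and 352 to 574 and 557 CPM and from 402 and 404 to 621 and 590.2 CPM. *Pltp*, the phospholipid transfer protein, rose from 452 and 444 to 1174 and 1229 CPM (log2 fold change 1.46, SE 0.0534, adjusted p = 1.8e-06). *Plin2*, the coat protein of lipid droplets, was lower in steatotic cells, at 1449 and 1432 against 1765 and 1743 CPM. Of 26 tested genes of fatty acid handling, 6 were higher and 6 lower, 23.1% in each direction and near the shares of all genes tested. Of 17 tested eicosanoid genes, 8 were higher and 3 lower, with *Alox5ap*, the partner of 5-lipoxygenase in leukotriene synthesis, rising from 63.9 and 58.6 to 142 and 141 CPM.

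Antioxidant genes were called in 1 direction. Of 22 tested, 16 were lower and 0 higher by edgeR (72.7%, against 16.1% of all genes tested, median log2 fold change -0.61), and DESeq2 called 17 and 0, as did an unadjusted p under 0.05. The summed level of the list was 7363 to 7590 CPM in normal and 4018 to 4123 CPM in steatotic cells. *Prdx1*, a thiol peroxidase and 1 of the most abundant genes of these cells, fell from 3279 and 3211 to 1438 and 1450 CPM, a difference of -1.13 on the log2 scale (SE 0.0313, adjusted p = 6.44e-07), and *Gsr*, which regenerates reduced glutathione, from 415 and 417 to 218 and 224 CPM. *Gpx1*, the cytosolic glutathione peroxidase, had 187 and 173 against 198 and 185 CPM and did not pass (adjusted p = 0.472). Of 22 tested iron and heme genes, 4 were higher and 9 lower. *Hmox1*, heme oxygenase, fell from 3792 and 3785 to 2270 and 2381 CPM, and *Slc48a1*, which carries heme out of phagolysosomes, from 719 and 704 to 451 and 463 CPM. *Lcn2*, which binds bacterial siderophores, rose from 7.15 and 9.81 to 35.1 and 29.99 CPM.

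**Figure D4:**
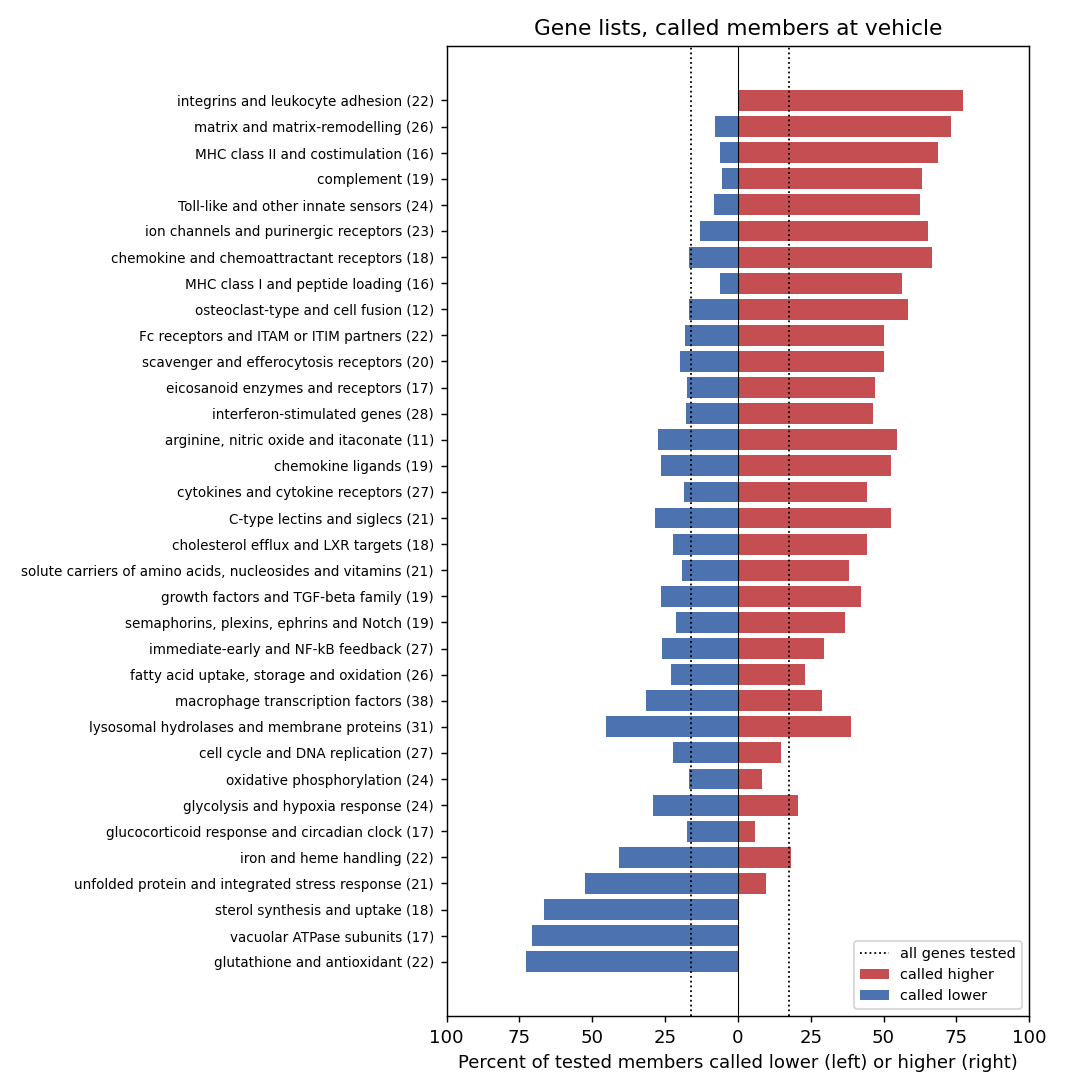
Bars give, for each functional gene list, the percent of its tested members (number in parentheses) that were called lower (left, blue) and higher (right, red) in steatotic against normal macrophages at vehicle, and dotted lines mark the shares among all 14008 genes tested, 16.1% and 17.5%. Adhesion, matrix, class II and complement genes stand at the top, and antioxidant, proton pump and sterol synthesis genes at the bottom. The dotted lines are not matched to the level of the genes in a list.

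In arginine metabolism, 11 of 14 genes were tested, and 6 were higher and 3 lower, with 2 of the higher ones tested through the steatotic libraries alone. Beside *Ass1*, the arginine transporter *Slc7a2* rose from 15.1 and 15.4 to 22.4 and 26.1 CPM. *Acod1*, the enzyme that makes itaconate, was lower in steatotic cells, at 238 and 212 against 300.5 and 314 CPM. Of 24 tested genes of glycolysis and hypoxia, 5 were higher and 7 lower (20.8% and 29.2%), and of 24 respiratory chain genes, 2 were higher and 4 lower (8.3% and 16.7%), against 17.5% and 16.1% of all genes tested. *Aldoa*, the glycolytic aldolase, fell from 976 and 962 to 634 and 662 CPM, *Hif1a* rose from 153 and 166 to 216 and 208 CPM, and *Atp5b*, the catalytic subunit of the ATP synthase, fell from 759 and 729.7 to 599.8 and 602 CPM. Of 21 solute carriers, 8 were higher and 4 lower, with *Slc37a2* of the phagosome membrane rising from 322 and 323 to 498 and 503 CPM and the glutamine carrier *Slc38a1* falling from 99.7 and 94.5 to 63.6 and 61.2 CPM. Among 23 tested ion channels and purinergic receptors, 15 were higher and 3 lower. *P2ry13*, a receptor for ADP, rose from 37.8 and 41.1 to 89.4 and 90.4 CPM and *P2ry6*, a receptor for UDP, from 102 and 93.7 to 173 and 174 CPM, while the inward-rectifier channel *Kcnj2* fell from 66.3 and 65.4 to 37.6 and 38.7 CPM. *P2rx7*, the ATP-gated channel, had 111 and 111 against 104 and 101.3 CPM and did not pass (adjusted p = 0.215).

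Transcription factors of macrophages moved in both directions. Of 38 tested, 11 were higher and 12 lower. *Maf*, a factor of resident and interleukin-10-producing macrophages, rose from 360.1 and 362 to 772 and 758 CPM, a difference of 1.12 on the log2 scale (SE 0.0349, adjusted p = 9.95e-07), and *Runx3* from 0.5099 and 0.574 to 4.21 and 3.51 CPM. *Spi1*, the lineage factor PU.1, had 379 and 374 CPM in normal and 475 and 468 CPM in steatotic cells and was called higher. *Bhlhe40* and *Bhlhe41*, related repressors that support the self-renewal of tissue macrophages, fell from 131 and 132 to 42.7 and 40.1 CPM and from 17.2 and 13.4 to 3.47 and 4.35 CPM. *Mitf*, a factor that drives lysosomal genes, had 99.3 and 94.9 against 101.4 and 105 CPM and did not pass (adjusted p = 0.0607). Among 27 tested immediate-early and NF-κB feedback genes, 8 were higher and 7 lower, or 7 and 8 when scaled by library size alone. *Egr1*, an early growth response factor, was lower in steatotic cells, at 11.97 and 11.1 against 21.9 and 20.4 CPM, and *Jun* at 116 and 115 against 187 and 176 CPM, while *Nfkbiz*, an atypical inhibitor of NF-κB, rose from 54.99 and 56.97 to 93.3 and 88.2 CPM. Of 17 tested glucocorticoid and clock genes, 1 was higher and 3 were lower.

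Stress and growth genes completed the lists. Of 21 genes of the unfolded protein and integrated stress responses, 2 were higher and 11 lower. *Hsp90b1*, a chaperone of the endoplasmic reticulum, fell from 431 and 428 to 295 and 299 CPM and *Asns*, asparagine synthetase, from 42.7 and 38.6 to 23.5 and 24.2 CPM. Of 27 cell cycle genes, 4 were higher and 6 lower. *Mcm6*, a subunit of the replicative helicase, fell from 55.4 and 53.2 to 12.9 and 11.7 CPM, *Ccnd2*, cyclin D2, rose from 8.38 and 9.21 to 37.8 and 33.7 CPM, and *Cdk1* had 3.48 and 2.72 against 2.09 and 2.32 CPM and did not pass (adjusted p = 0.133). Of 19 tested semaphorin, plexin, ephrin and Notch genes, 7 were higher and 4 lower. *Sema4a*, a membrane semaphorin that costimulates T cells, rose from 4.65 and 5.13 to 28.3 and 27.8 CPM, and *Jag1*, a Notch ligand, fell from 30.9 and 32.6 to 15.3 and 13.4 CPM. Of 20 ribosomal protein genes, 3 were higher and 2 lower, or 1 and 2 when scaled by library size alone. *Rps2* was the ribosomal protein gene that differed most, at 379 and 358 CPM in normal and 111 and 123.4 CPM in steatotic cells. Its processed pseudogenes *Rps2-ps6* and *Rps2-ps10* were slightly higher, with log2 fold changes of 0.29 and 0.19. Its pseudogenes *Rps2-ps8* and *Rps2-ps13* did not pass (adjusted p = 0.568 and 0.874). Whether reads were split among these copies was not tested, and the count of *Rps2* is uncertain. Of 5 sex-linked genes, 4 were tested, 1 of them higher, *Uty*, at 28.3 and 26.1 against 35.4 and 37.6 CPM, with *Xist* below the filter.

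Promoters of the called genes were searched for the letters of 7 motifs on both strands, from 250 bases before to 50 bases after the gene start in RefSeq on GRCm38.p6. A promoter was found by symbol for 9887 of the 14008 tested genes, among them 1775 called higher and 1724 called lower. CACGTG, the E-box that MITF and TFE factors can bind, was present for 15.9% of the genes called lower, 9.46% of those called higher and 11.9% of all tested. GAAANNGAA, the core of the interferon-stimulated response element, was present for 14.4% of the genes called higher, 7.37% of those called lower and 9.18% of all tested. GAGGAAGT, which PU.1 can bind, was present for 6.93%, 3.07% and 4.07% in the same order. These shares are a description without a test. TGACTCA, bound by AP-1, was present for 6.65%, 5.1% and 4.78%, and TTGCGCAA, bound by C/EBP, for 0.451%, 0.29% and 0.334%. GCGTGGGCG, bound by EGR factors, was present for 1.18%, 1.39% and 1.45%, and TGGGAA, the core bound by RBPJ, for 27.7%, 27.1% and 26.6%. The letters of these motifs do not contain each other, a match is no proof of binding, and 2008 genes had several promoters, of which any match counted.

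A promoter of *Gdf15* and that of *Atp6v1a*, both lower in steatotic cells, hold the E-box, that of *Tgfbi*, higher, holds the interferon core, and that of *Fcgr4*, higher, the PU.1 letters. They are shown as examples of promoters with these letters in genes whose values are given above, and were chosen after the values were seen. The E-box of *Gdf15* lies in 1 of the 2 promoters listed for it, which is the one printed. Each line is the 300 bases from 5′ to 3′ in the direction of the gene, from RefSeq on GRCm38.p6, with the motif in capitals: *Gdf15* (chr8:70632046-70632345, minus strand), *Atp6v1a* (chr16:44139210-44139509, minus strand), *Tgfbi* (chr13:56609336-56609635, plus strand) and *Fcgr4* (chr1:171018676-171018975, plus strand, with the motif on the opposite strand, so that the reverse complement of the letters is in capitals).
Gdf15: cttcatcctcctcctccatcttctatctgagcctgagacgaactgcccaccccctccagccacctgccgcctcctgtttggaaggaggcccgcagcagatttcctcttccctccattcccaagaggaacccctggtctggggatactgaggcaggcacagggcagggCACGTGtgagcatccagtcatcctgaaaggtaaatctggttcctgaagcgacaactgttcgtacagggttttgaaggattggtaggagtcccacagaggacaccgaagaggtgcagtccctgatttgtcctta
Atp6v1a: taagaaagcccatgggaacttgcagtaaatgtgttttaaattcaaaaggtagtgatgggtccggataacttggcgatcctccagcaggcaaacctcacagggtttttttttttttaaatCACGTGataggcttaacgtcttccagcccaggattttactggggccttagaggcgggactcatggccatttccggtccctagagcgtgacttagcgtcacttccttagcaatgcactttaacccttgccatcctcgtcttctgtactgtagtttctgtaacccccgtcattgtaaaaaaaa
Tgfbi: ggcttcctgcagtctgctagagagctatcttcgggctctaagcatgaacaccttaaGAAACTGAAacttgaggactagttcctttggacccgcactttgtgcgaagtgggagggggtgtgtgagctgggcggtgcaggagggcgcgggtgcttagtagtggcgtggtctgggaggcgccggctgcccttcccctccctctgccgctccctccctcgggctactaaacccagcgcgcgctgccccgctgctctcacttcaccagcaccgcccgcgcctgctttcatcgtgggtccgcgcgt
Fcgr4: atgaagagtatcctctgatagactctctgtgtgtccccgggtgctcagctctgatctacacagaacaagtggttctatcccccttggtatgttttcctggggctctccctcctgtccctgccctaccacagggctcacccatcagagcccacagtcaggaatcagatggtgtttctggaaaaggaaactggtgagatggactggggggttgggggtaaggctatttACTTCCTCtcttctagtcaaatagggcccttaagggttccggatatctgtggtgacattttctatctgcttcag

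The difference between the livers was also measured in the 4 libraries treated with CC, which the Veh comparison uses only for the spread. The labels do not say whether the same mice gave both sets of cultures. There, 2345 genes were higher in steatotic cells, 16.7% of the 14008 tested, and 2033 were lower, 14.5%. Of the 2455 genes higher at vehicle, 1762 were also called higher with CC, 71.8% of the Veh list and 75.1% of the CC list, and 2325 (94.7%) had the same sign. For the lower genes, 1412 were shared, 62.5% of the 2261 called at vehicle and 69.5% of the 2033 called with CC, and 2082 (92.1%) had the same sign. A change of sign that was called with CC was found for 22 of the higher and 34 of the lower genes.

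A direct test of the difference between the contrasts was passed by 298 genes in which the value of steatotic relative to normal was higher with CC, 2.13% of those tested, and by 201 in which it was lower, 1.43% (309 with DESeq2). Of the 2455 genes higher at vehicle, 135 differed less between the livers with CC and 56 differed more, and of the 2261 lower genes, 189 differed less and 26 more. These genes were chosen by their Veh values, which enter the difference, so nothing is read from the excess of smaller differences. In the list of the lipid- or scar-associated macrophage, 4 of the 9 members lower at vehicle differed less with CC and 1 more, and 4 of the 7 higher members differed more and 0 less, by the same adjusted p. *Spp1* and *Fabp5* had log2 fold changes of 4.07 and 1.26 with CC, in place of 2.29 and 0.86 (adjusted p of the difference = 0.00559 and 0.0109). *Gpnmb* and *Lgals3* were among those that differed less. With CC, *Gpnmb* was at 9204 and 9069 CPM in normal and 8540 and 8154 CPM in steatotic cells, a log2 fold change of -0.11 in place of -0.70 at vehicle (adjusted p of the difference = 0.00179). *Mmp12* was at 3957 and 3750 against 2580 and 2161 CPM with CC, a log2 fold change of -0.68 in place of -2.38 (adjusted p of the difference = 0.00226). *Eef1a2* was at 42.4 and 43.6 against 30.5 and 30.2 CPM with CC, and its log2 fold change of -0.48 was much nearer to 0 than the -3.71 at vehicle. For *Tgfbi*, the value with CC was 5.17 in place of 5.52 (adjusted p of the difference = 0.0436). All 12 vacuolar ATPase subunits lower at vehicle had the same sign with CC and 11 were also called, whereas of the 12 sterol genes lower at vehicle, 10 had the same sign and 4 were called. All 14 T and NK cell markers higher at vehicle were also called higher with CC, as were 8 of the 9 hepatocyte markers lower at vehicle in their own direction.

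**Figure D5:**
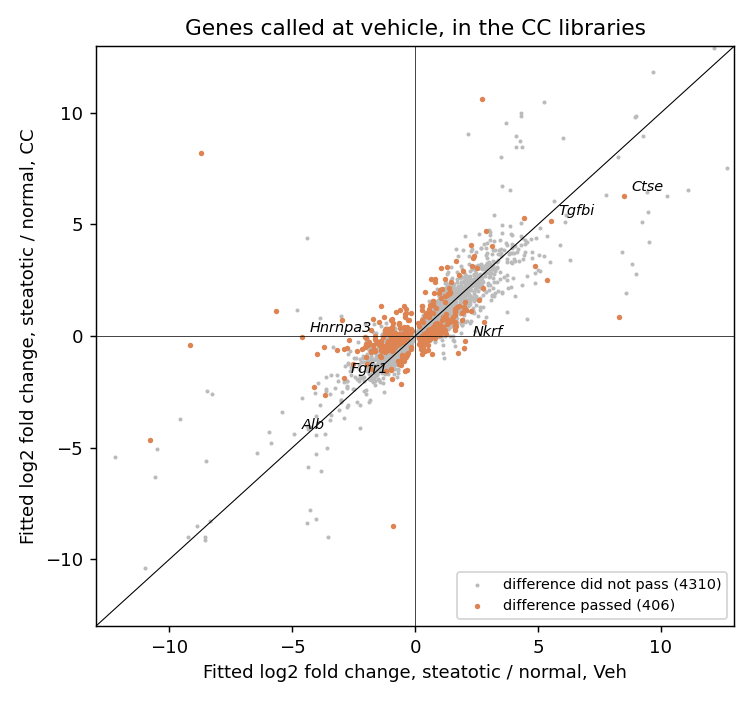
Each point is a gene called at vehicle, with its fitted log2 fold change of steatotic over normal in the Veh libraries (x) and in the CC libraries (y), and the line marks equal values. The 406 genes whose difference between the contrasts passed the test (orange) and the 4310 others (grey) were chosen by the values on the horizontal axis, and far points near the edges include genes at 0 counts in 1 group.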

How the data were processed

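RNA of cultured hepatic macrophages was sequenced in 8 libraries, 2 for each of normal and steatotic livers with vehicle or with CC at 500 μg/ml for 24 h. The authors used fastp for trimming, HISAT2 for alignment to mm10 and StringTie for the level of each gene. Versions are not given in the sources used here. The deposited values are estimated counts per gene, all whole and not normalized. Low values peaked at multiples of 4 (4248 Veh values of 4 against 1709 of 3), although values of 1 and 2 were also common (2607 and 2430), so that 1 fragment may have given about 4 counts, and depth in fragments may be lower by that factor. Replicates were not duplicates, with a chi-square per degree of freedom of 9.81 and 7.97 on counts divided by 4.

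From these, genes that reached 0.5 CPM in 2 or more of the 4 Veh libraries were fitted in edgeR 4.0.16 (R 4.3.3; TMM, robust quasi-likelihood, 4 group means over all 8 libraries) and p-values adjusted by Benjamini-Hochberg. CPM are counts per 1000000 counts of the library. The SE is the log2 fold change divided by the square root of F. On simulated counts of the Veh comparison over 14008 genes, 69 of 100 genes changed 2-fold and 100 of 100 changed 4-fold were recovered, with 10 unchanged genes called. The changed genes were drawn from those with a mean above 5 CPM, and all genes were given the same spread. Recovery of lower genes, uneven spread and several counts per fragment were not covered. DESeq2 1.42.0, other scalings and filters, the Veh libraries alone, a replicate block, counts divided by 4, a prior count of 4, glmTreat and leaving out each Veh library were tried. Gene positions and classes are from GENCODE M21 (GRCm38). Figures were drawn with matplotlib 3.10.9.

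Named genes were the 12 protein-coding genes highest and lowest in fold change with at least 5 CPM and groups that do not overlap, the 8 with the largest gain and loss in CPM, up to 3 called members a direction and 3 others of each list, and up to 6 genes with the largest difference between the contrasts in either direction. Gene lists and members were chosen with earlier results of these data known, and relatives and pseudogenes of named genes, as well as markers below the filter, were added after their values were seen. Some genes that this rule names are not reported here.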

Additional observations from a re-analysis of the deposited data

Results flagged for a closer look

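For 73 genes named in the text, the difference between steatotic and normal cells itself differed between the CC and the Veh libraries (edgeR quasi-likelihood test of the difference between the contrasts, adjusted over the 14008 genes tested). The adjusted p given for each gene is from that test, with 2 libraries in each group. The rule for named genes gave 375 genes. Among all 14008 genes tested, 2.13% passed this test with a higher value with CC and 1.43% with a lower one. Some of the 73 were named because this difference was among the largest, so the count is partly set by that choice. Others were named by their Veh values, which enter the difference. Nothing is therefore read from the count of 73 against the share of all genes. The causes were not tested.

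*Eef1a2* (8.61e-05), *Hnrnpa3* (0.000121), *Mmp12* (0.00226) and *Gpnmb* (0.00179) have their values above. For *Fgfr1* (0.00279) the log2 fold change was -2.90 at vehicle and -1.90 with CC, for *Lgals3* (0.00184) -1.03 and -0.36, for *Psap* (0.0166) -0.42 and -0.11, and for *Lyz2* (0.0492) -1.16 and -0.61. *Serpina1b*, a hepatocyte gene (0.0142), was at 3.41 and 3.41 CPM in normal and 0 in both steatotic Veh libraries, and at 3.19 and 2.81 against 0.122 and 0.107 CPM with CC. Genes known only by a code were *Gm27505* (7.58e-05), at 15.9 and 19.5 against 0.0293 and 0.0272 CPM at vehicle and 22.7 and 21.03 against 14.9 and 18.2 CPM with CC, *C330011M18Rik* (0.00664), at 0.637 and 0.966 CPM in normal and 0 in both steatotic libraries at vehicle and 0 in both normal and 0.457 and 0.604 CPM in steatotic libraries with CC, and *Gm42596* (0.0184), at 2.42 and 1.48 against 0.0732 and 0 CPM at vehicle and 1.27 and 0.545 against 2.09 and 1.85 CPM with CC. *Slc9a4*, a sodium-proton exchanger (0.0298), was higher in steatotic cells, at 0.0567 and 0.181 against 0.776 and 0.748 CPM at vehicle and 0 in both normal and 2.75 and 3.06 CPM in steatotic libraries with CC.

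Among genes higher in steatotic cells at vehicle, *Tgfbi* (0.0436), *Lgmn* (0.00552) and *Sirpb1a* (0.0257) had log2 fold changes of 5.52, 0.57 and 4.44, and with CC 5.17, 0.22 and 5.28. *Ctse* (0.0221) was at 0.224 and 0.204 against 17.4 and 15.3 CPM with CC, with its Veh values given above. *Nkrf*, a repressor of NF-κB targets (0.00169), was at 2.73 and 2.46 against 9.51 and 11.2 CPM at vehicle and 11.6 and 10.6 against 9.51 and 9.16 CPM with CC. *Scai* (0.00596) was at 0.694 and 0.891 against 3.34 and 2.73 CPM at vehicle and 3.48 and 3.19 against 2.302 and 2.17 CPM with CC, and *Tnfsf4*, the ligand of OX40 (0.0105), at 0.17 and 0.121 against 6.73 and 5.001 CPM at vehicle and 0.833 and 0.733 against 5.001 and 3.88 CPM with CC. *Lrrc14b* (0.0143) was at 1.601 and 1.43 against 4.51 and 5.41 CPM at vehicle and 2.42 and 2.86 against 1.13 and 1.91 CPM with CC, and *Cd59b*, an inhibitor of complement lysis (0.0293), was at 0 in both normal and 0.556 and 0.612 CPM in steatotic libraries at vehicle and at 0.304 and 0.204 against 0.518 and 0.389 CPM with CC. *Epor*, the erythropoietin receptor (0.00596), was lower in steatotic cells, at 3.03 and 3.49 against 1.51 and 1.85 CPM at vehicle and 0.705 and 0.648 CPM in normal and 0 in both steatotic libraries with CC. Several of these are at 0 or at a few counts in a group, where the test rests on little.

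Genes higher in steatotic cells at vehicle and further apart with CC were *Vcan* (0.00263), *Mmp8* (0.00403), *Thbs1* (0.00524), *Spp1* (0.00559), *Ccl6* (0.00839), *Fabp5* (0.0109), *Hif1a* (0.0158), *Ass1* (0.0181), *Slc7a2* (0.0288) and *Ctsk* (0.0448). Genes higher at vehicle and less far apart with CC were *Pecam1* (0.00373), *Tlr9* (0.00559), *Cd93* (0.00634), *Ccl5* (0.00728), *Il4ra* (0.0105), *Itgb5* (0.011), *H2-DMa* (0.0117) and *Man2b1* (0.0122), as well as *P2ry6* (0.0151), *Adgre1* (0.0207), *Fcgr4* (0.0232), *Tlr1* (0.0235), *Alox5ap* (0.0244), *Nfkbiz* (0.0339), *Vsig4* (0.0361) and *Maf* (0.0404). Among genes lower at vehicle, the difference was smaller with CC for *Bhlhe40* (0.00111), *Cxcl2* (0.00328), *Atp6v1c1* (0.00501), *Cd33* (0.00606), *Jag1* (0.00628) and *Egr1* (0.00635), and likewise for *Tlr2* (0.00885), *Bhlhe41* (0.0129), *Gsr* (0.0187), *Cd14* (0.0201), *Lilrb4a* (0.0324) and *Jun* (0.0475), and larger for *Lipa* (0.0122). The sign of the fitted value turned with CC for *Clec4e* (7.58e-05), from -0.62 to 1.16 on the log2 scale, *Il1a* (0.00169), from -1.06 to 0.10, *Acod1* (0.00564), from -0.41 to 0.34, and *Cd1d1* (0.0431), from -0.92 to 0.01. Genes that did not pass at vehicle were *Igf1* (0.00559), *Atp6v0d2* (0.00559), *Cd9* (0.00596), *Cxcl13* (0.00965), *Icam1* (0.0203), *Inhba* (0.0228) and *Npc2* (0.0422), with *Inhba* at 47.3 and 43.6 against 312 and 237 CPM and *Cxcl13* at 7.63 and 8.08 against 26.6 and 39.5 CPM with CC.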

How the results depend on the processing

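The counts of genes higher and lower at vehicle stayed within 1.5 times their values under every alternative run, and no gene called in both turned its sign. Genes over 2-fold higher numbered 875, and 450 with a filter at 5 CPM or 404 when a change beyond 2-fold was itself tested (glmTreat), with 460 lower and 199 and 161, respectively. Of the genes over 2-fold, 163 of the higher and 97 of the lower had a mean below 1 CPM, and 332 and 191 a mean from 1 to 5 CPM. The cause of the smaller counts was not tested. Genes whose difference between the contrasts was lower with CC numbered 201, and 309 with DESeq2, whose cause was not tested. Leaving out 1 Veh library left 1857 to 2025 genes higher, 1589 to 1655 lower, 759 to 811 over 2-fold higher and 386 to 449 over 2-fold lower, the lone library being taken to vary like the other groups. At 5 CPM, 3 of 14 growth factors were lower and 2 of 14 cell cycle genes higher. With the replicate number as a block, 2314 genes were higher and 2093 lower. The deviations of same-numbered libraries correlated across genes with r = -0.00497 between the Veh groups and with r up to 0.0902 between any of the 4 groups, and the samples are taken to share only a number. Of the genes named above, *Usf3* and *Epor* lost their call under an alternative other than a left-out library or the 2-fold test. The cause was not tested. *Stab2* and *Ftl1* each lost the call when 1 library was left out. If 1 fragment gave about 4 counts, as peaks at 4, 8 and 12 would have it, genes below about 1 CPM rest on few fragments. Counting error alone is covered by the floors.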

Other observations

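Of 1177 pseudogenes tested, 123 were higher and 80 lower in steatotic cells, 10.5% and 6.8%, and of 965 other noncoding genes, 120 and 87. Among 11847 protein-coding genes, 2206 were higher and 2093 lower, 18.6% and 17.7%. *Gm6166*, a processed pseudogene, was at 1.36 and 2.25 CPM in normal and 83.5 and 91.2 CPM in steatotic cells, and reads of a related gene counted there cannot be told apart from its own. These classes also differ in level, and no test of the difference was made. By mean level, 11.3% of genes were higher and 6.6% lower below 1 CPM, 16.1% and 11.7% from 1 to 5 CPM, 12.4% and 16.3% from 5 to 20 CPM, 16.7% and 18.5% from 20 to 100 CPM, 32.8% and 21.9% from 100 to 1000 CPM, and 40.6% and 36.6% above.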
